A study of Mus musculus with 20 samples.

Results

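The fatty acid elongases Elovl1 to Elovl7 are the 7 genes described here, out of 55401 in the deposited count table. The rule that took them used symbols and no measured value, but it was set with earlier results of these data known. All 7 symbols matched a single gene in the table. RNA came from eWAT, the white fat of the epididymal pad of mice, in 10 libraries of random food restriction, a regime that joins intermittent fasting to a 5% cut in calories, and in 10 libraries of a control diet. Strain, genotype, age and the number of animals could not be taken from the labels, so replicates are separate libraries and p-values measure the spread between libraries, which may be technical in part. A label for contamination with spermatocytes is Yes for 3 restricted and 7 control libraries and No for 7 restricted and 3 control libraries.

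Elongases start the cycle by which the endoplasmic reticulum lengthens fatty acids: they join an acyl-CoA to malonyl-CoA, after which a ketoacyl reductase, a dehydratase and an enoyl reductase finish each round. The members differ in the chains they take. Elovl6 makes stearate from palmitate and is a known target of the lipogenic factors SREBP-1c and ChREBP. Elovl5 and Elovl2 lengthen polyunsaturated fatty acids. Elovl1, Elovl3 and Elovl7 work mainly on saturated and monounsaturated chains, with Elovl3 known from brown fat, skin and liver. Elovl4 makes the longest chains, in retina, brain, skin and testis. In white fat, elongation follows de novo synthesis and sets the balance of stored chain lengths.

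Libraries held 18291602 to 44061508 counts on restriction and 14306528 to 38789768 on the control diet. Adipocyte markers were high in every library: Adipoq, Plin1, Lep, Cidec, Fabp4 and Pparg summed to 23900 to 30500 CPM (counts scaled to a common library size) in restricted and 20100 to 24900 CPM in control libraries. All 5 macrophage genes listed were called lower on restriction, where 7.29% of all tested genes were. Their sums were 629 to 1020 CPM in restricted and 922 to 1240 CPM in control libraries. RNA integrity numbers, given for 17 libraries, averaged 7.18 in restricted and 7.41 in control libraries. Skeletal muscle markers stood apart in 6 libraries, Restricted 1 and Control 1 to 5, with a mean log2 CPM of 4.38 to 6.43 over 12 genes against -0.941 to 1.61 in the other 14. Those 14, 9 restricted and 5 control, are called the libraries without muscle RNA below. Their muscle marker sums still reached 123 CPM in restricted and 54.2 CPM in control libraries, and a fit of them holds fewer controls. The 10 germ cell markers did not separate the contamination labels, with sums of 2.25 to 94.7 CPM in libraries marked Yes and 2.62 to 34.5 CPM in those marked No. The median sums of these markers were 9.97 CPM in Yes and 4.64 CPM in No. Sycp3, the only one of them that was tested, was called higher on restriction (log2 fold change 1.37, adjusted p = 0.000912). It does not stand for the list, whose sum had a median of 4.64 CPM in restricted and 9.22 CPM in control libraries. In bulk tissue, fewer cells of a type and less RNA per cell cannot be told apart.

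Counting by gene length, 3 elongases made up nearly all of the family's RNA. In restricted libraries, Elovl6 averaged 28.5 ± 36.2, Elovl5 23.9 ± 3.36 and Elovl1 17.6 ± 1.95 CPM per kilobase of gene model (SD, n = 10). In control libraries the order of the means was Elovl1 at 19.4 ± 1.04, Elovl5 at 19.2 ± 1.94 and Elovl6 at 8.57 ± 2.69 CPM per kilobase (SD, n = 10). The first and the second of that order did not differ beyond their spread, and in the restricted libraries the spread of Elovl6 covered both of the others. The median of Elovl6 per kilobase was 10.7 in restricted and 8.63 in control libraries, below the Elovl5 level in each diet. The other 4 members were far lower, with means of 0.262 (Elovl7), 0.141 (Elovl3), 0.0697 (Elovl2) and 0.0560 (Elovl4) CPM per kilobase in restricted libraries, and of 0.328 (Elovl7), 0.0517 (Elovl3), 0.122 (Elovl2) and 0.0312 (Elovl4) in control libraries. The ranges of these last 4 overlapped one another in both diets.

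**Figure D1:**
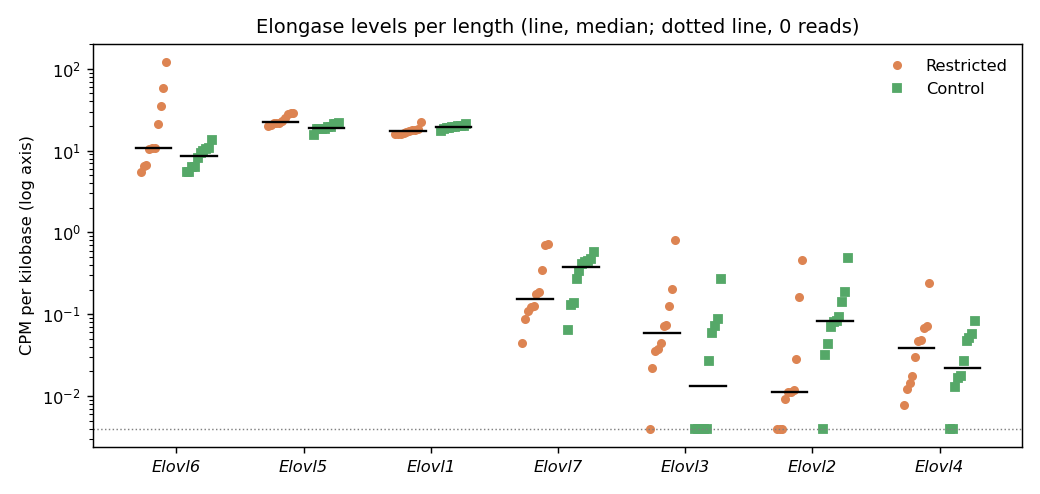
Level of each elongase per kilobase of gene model (CPM per kilobase, log axis) in 10 restricted (circles) and 10 control libraries (squares), with the median as a line; points on the dotted line had 0 reads. Elovl6, Elovl5 and Elovl1 lie far above the other 4, and Elovl6 reaches 120 in Restricted 1, against at most 13.6 in control libraries.

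Within single libraries, Elovl5 was the most abundant elongase per kilobase in 7 restricted libraries and Elovl6 in 3, whereas Elovl1 led in 5 control libraries and Elovl5 in the other 5. Elovl5 exceeded Elovl1 per kilobase in 10 of 10 restricted and in 5 of 10 control libraries. The ratio of Elovl6 to Elovl5 per kilobase ran from 0.251 over a median of 0.481 to 4.19 in restricted libraries, and from 0.285 over 0.438 to 0.638 in control libraries.

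The question the design poses is which transcripts of the fat pad differ between the diets. In edgeR's quasi-likelihood fit of 15986 genes, with the contamination label as a term, 4 elongases passed the filter on low counts (Elovl1, Elovl5, Elovl6 and Elovl7). Of these, Elovl5 and Elovl6 were called higher on restriction and none was called lower at an adjusted p under 0.05. Over all tested genes 6.31% were called higher and 7.29% lower, 13.6% in all, and the median log2 fold change was 0.01. None of the 4 was without overlap between the diets over all 20 libraries, where 0.363% of tested genes were higher and 0.588% lower in that way. The log2 fold changes of the 4 tested elongases ran from -0.11 to 2.04.

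Elovl5, the elongase of polyunsaturated chains, lies on chromosome 9 from 77917364 to 77984519 on the plus strand (GRCm38, whole gene model, as in the deposited table). Elovl6 lies on chromosome 3 from 129532355 to 129634971 and Elovl1 on chromosome 4 from 118428093 to 118432613, both on the plus strand. The bases just before these 3 starts are shown because Elovl5 and Elovl6 were called higher on restriction while Elovl1 was lower in most restricted libraries. Each runs 5′ to 3′ on the plus strand (RefSeq, GRCm38.p6) and ends where the deposited gene model begins, which leaves chr9:77917115-77917363, chr3:129532136-129532354 (219 bases) and chr4:118427843-118428092. Capitals mark matches to 5 motifs searched on both strands: the E-box CACGTG, the CCAAT box CCAAT, the GC box GGGCGG, a sterol response element TCACNCCAC and a DR4 nuclear receptor repeat. Only in Elovl1 do matches overlap, where a GC box and a CCAAT box share bases.
Elovl5: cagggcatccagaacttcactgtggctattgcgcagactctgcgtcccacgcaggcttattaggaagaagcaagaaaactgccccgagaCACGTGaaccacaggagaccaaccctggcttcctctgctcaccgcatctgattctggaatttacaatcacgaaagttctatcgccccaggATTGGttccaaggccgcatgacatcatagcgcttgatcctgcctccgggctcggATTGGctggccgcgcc
Elovl6: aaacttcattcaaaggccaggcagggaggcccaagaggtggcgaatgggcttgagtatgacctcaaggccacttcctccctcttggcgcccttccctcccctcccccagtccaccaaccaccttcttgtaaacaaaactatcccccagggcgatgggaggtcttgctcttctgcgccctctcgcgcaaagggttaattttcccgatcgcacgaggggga
Elovl1: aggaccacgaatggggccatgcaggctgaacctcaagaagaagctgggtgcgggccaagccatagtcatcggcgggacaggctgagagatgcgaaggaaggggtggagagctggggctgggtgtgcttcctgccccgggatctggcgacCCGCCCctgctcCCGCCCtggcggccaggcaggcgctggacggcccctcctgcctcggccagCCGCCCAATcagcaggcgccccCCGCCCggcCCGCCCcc
The Elovl5 window held 1 E-box, 161 bases before the RefSeq start, and 2 CCAAT boxes, 71 and 17 bases before it. The Elovl1 window held 5 GC boxes and 1 CCAAT box, and the Elovl6 window held no match to these letters. In windows of 250 bases before the starts in the RefSeq table (32841 promoters), 6.02% held the E-box, 33.9% the CCAAT box, 32.7% the GC box, 1.05% the sterol response element and 0.0152% the DR4 repeat. A promoter was found for 6 elongases, all but Elovl3. Of the 6, 1 held the E-box, 2 the CCAAT box, 4 the GC box and none the other two motifs.

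Elovl5 was at 70.1, 79.1 and 101 CPM (lowest, median, highest) in restricted libraries, against 54.0, 66.8 and 77.1 CPM in control libraries. All 10 restricted libraries stood above the control median and 6 above the highest control library, so the groups overlapped only in part. The means were 84.1 ± 11.8 CPM on restriction and 67.7 ± 6.82 CPM on the control diet (SD, n = 10 each), a log2 fold change of 0.35 ± 0.0830 (SE, edgeR's adjusted p = 0.00822). Among libraries marked No, the 7 restricted ones (70.1 to 100.4 CPM) lay above the 3 control ones (54.0 to 68.2 CPM). Of all tested genes, 4.39% were higher without overlap in that subset. Among libraries marked Yes, the 3 restricted ones had 73.1, 75.9 and 101 CPM and the 7 control ones 64.2 to 77.1 CPM, so these overlapped. In either label alone the log2 fold change was 0.45 (No, adjusted p = 0.0636) and 0.26 (Yes, adjusted p = 0.232). The call held without each of the 20 libraries taken singly, at an adjusted p of up to 0.0343 without Restricted 1. It also held in all 20 with the mean log2 CPM of the muscle markers as a term (log2 fold change 0.37, adjusted p = 0.00491). It ended in the 14 libraries without muscle RNA (log2 fold change 0.32, adjusted p = 0.110), with the germ cell index in place of the label (0.24, adjusted p = 0.0600) and with RNA integrity as a term in 17 libraries (0.34, adjusted p = 0.0894, against 0.34 and 0.0235 in the same 17 without it).

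**Figure D2:**
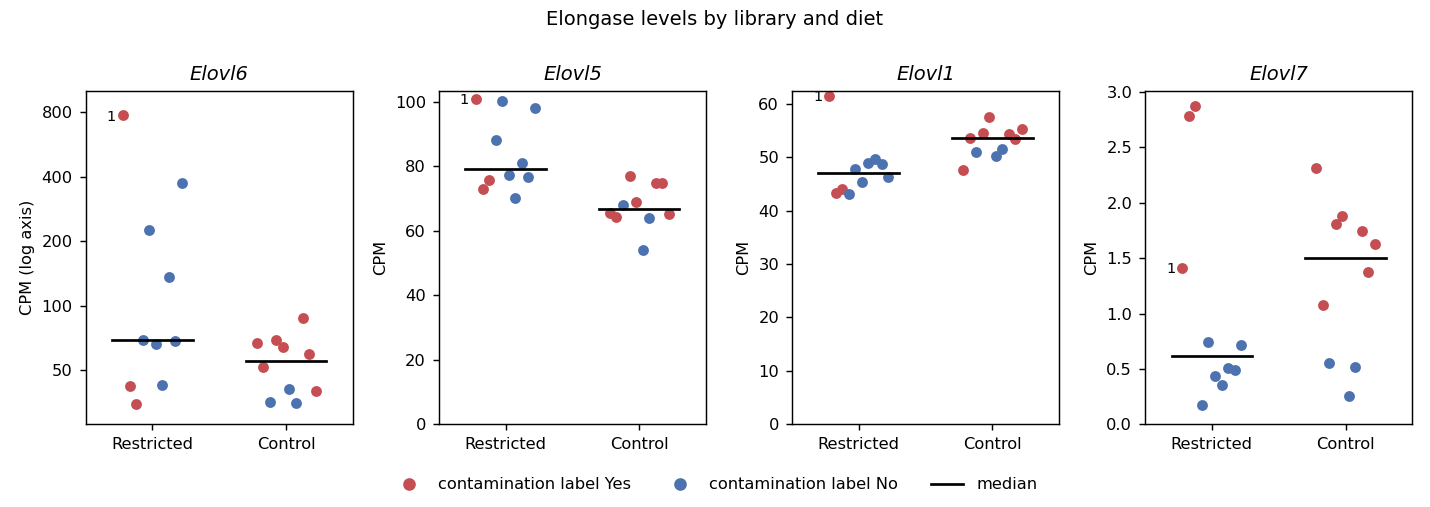
CPM of Elovl6 (log axis), Elovl5, Elovl1 and Elovl7 (linear axes from 0) in each library, restricted left and control right, coloured by contamination label; lines are medians and the digit 1 marks Restricted 1. Elovl6 runs from 34.8 to 773 CPM in restricted and from 35.3 to 87.3 CPM in control libraries, while Elovl7 separates the labels.

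Elovl6, the palmitate elongase, was, of the 4 tested members, the one that differed most between libraries of the restricted diet. It was at 34.8, 69.0 and 773 CPM (lowest, median, highest) in restricted libraries, against 35.3, 55.5 and 87.3 CPM in control libraries. Restricted 1 had the 773 CPM, followed by Restricted 10 with 372, Restricted 5 with 224 and Restricted 8 with 136 CPM. These 4 stood above every control library. The other 6 restricted libraries, at 34.8 to 69.5 CPM, lay within the range of the controls or just under it. The highest restricted library had 22.2 times the level of the lowest, and the highest control library 2.48 times. The SD of log2 CPM was 1.49 in restricted and 0.46 in control libraries, a ratio of 3.28. Only 95 of the 15986 tested genes (0.594%) had a larger ratio, and the median ratio was 1.23.

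The mean of Elovl6 was 183 ± 233 CPM on restriction and 55.1 ± 17.3 CPM on the control diet (SD, n = 10 each). Its log2 fold change was 2.04 ± 0.490 (SE, edgeR's adjusted p = 0.00833), and 7 of 10 restricted libraries were above the control median. Without Restricted 1 the restricted mean was 117 ± 113 CPM (SD, n = 9), the log2 fold change 0.90 and the adjusted p 0.322. In the 14 libraries without muscle RNA the log2 fold change was 0.71 (adjusted p = 0.607). With the mean log2 CPM of the muscle markers as a term in all 20 libraries it was 1.80 (adjusted p = 0.0196). Muscle markers summed to 1810 CPM in Restricted 1 and to 433 to 1420 CPM in Control 1 to 5, and in those 5 control libraries Elovl6 was at 35.5 to 69.4 CPM. Restricted 10 and Restricted 5 had muscle sums of 123 and 52.3 CPM. Among libraries marked No, the 7 restricted ones (42.9 to 372 CPM) lay above the 3 control ones (35.3 to 41.0 CPM), as did 4.39% of all tested genes. Among those marked Yes, Restricted 1 stood above the 7 control libraries (40.1 to 87.3 CPM), while Restricted 2 and Restricted 3 had 42.2 and 34.8 CPM. In that subset 3.31% of all tested genes were higher and 5.04% lower without overlap. In either label alone the log2 fold change was 1.91 (No, adjusted p = 0.113) and 2.20 (Yes, adjusted p = 0.129). The test of a different diet effect by label gave a log2 difference of 0.26 ± 0.994 (SE, adjusted p = 0.967).

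Elovl1, which lengthens saturated chains in nearly all tissues, was at 43.1, 47.0 and 61.4 CPM (lowest, median, highest) in restricted libraries, against 47.6, 53.5 and 57.5 CPM in control libraries. Restricted 1 was again the highest of all 20, and the other 9 restricted libraries, at 43.1 to 49.7 CPM, were all under the control median, 5 of them under the lowest control library. The means were 47.9 ± 5.32 CPM on restriction and 52.9 ± 2.83 CPM on the control diet (SD, n = 10 each). With all 20 libraries the log2 fold change was -0.11 ± 0.0589 (SE) and missed the threshold (adjusted p = 0.210). Without Restricted 1 it was -0.19 ± 0.0484 (SE, edgeR's adjusted p = 0.0143), with a restricted mean of 46.4 ± 2.53 CPM (SD, n = 9). In the 14 libraries without muscle RNA it was -0.20 (adjusted p = 0.0496). Among libraries marked No, the 7 restricted ones (43.1 to 49.7 CPM) lay below the 3 control ones (50.2 to 51.6 CPM), as did 4.73% of all tested genes. Among those marked Yes, the 3 restricted ones had 43.3, 44.0 and 61.4 CPM and the 7 control ones 47.6 to 57.5 CPM. Leaving out Restricted 1, where 1783 of 16135 genes were called, thus kept the number of elongases called at 2 while changing which they were, Elovl5 and Elovl1 in place of Elovl5 and Elovl6.

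**Figure D3:**
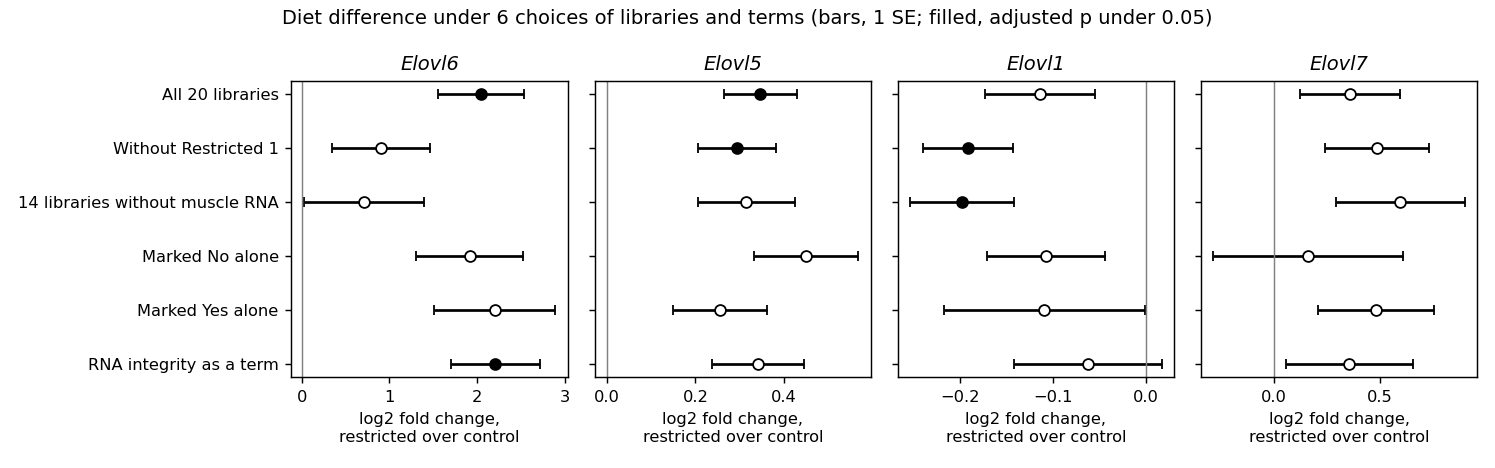
Log2 fold change of Elovl6, Elovl5, Elovl1 and Elovl7, restricted over control, from edgeR with all 20 libraries and under 5 other choices of libraries or terms; bars are 1 SE, filled points have an adjusted p under 0.05 over all genes of that fit. Elovl6 lies at 0.90 without Restricted 1, against 2.04 in all libraries, and Elovl1 at -0.19, against -0.11.

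Elovl7, an elongase of saturated chains, was low and followed the contamination label. It was at 1.08, 1.78 and 2.87 CPM (lowest, median, highest) in libraries marked Yes, against 0.176, 0.50 and 0.743 CPM in libraries marked No. The 2 labels did not overlap, as was the case with a higher level in Yes for 2.04% of tested genes. The log2 fold change, Yes over No with diet as a term, was 2.12 ± 0.238 (SE, edgeR's adjusted p = 7.73e-07), in a fit that called 5.3% of genes, 5.04% higher and 0.269% lower in Yes. It was the only one of the 4 tested elongases that was called by label. The others had adjusted p values of 0.459 (Elovl6), 0.669 (Elovl1) and 0.773 (Elovl5). By diet, Elovl7 averaged 1.05 ± 0.994 CPM in restricted and 1.31 ± 0.686 CPM in control libraries (SD, n = 10 each), whereas the fit that accounts for the label gave a log2 fold change of 0.36 ± 0.236 (SE, adjusted p = 0.337). The raw means thus differ in the other direction, with 3 restricted but 7 control libraries marked Yes. Among Yes the means were 2.36 ± 0.820 (restricted, n = 3) and 1.69 ± 0.391 CPM (control, n = 7, SD), and among No 0.490 ± 0.199 (restricted, n = 7) and 0.441 ± 0.160 CPM (control, n = 3, SD). The gene lies on chromosome 13 from 108214404 to 108285683 on the plus strand.

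The remaining 3 members had too few reads for the filter. Elovl2, which makes the precursors of docosahexaenoic acid and is known from liver, retina and testis, had 0, 0, 0, 1, 1, 1, 2, 2, 12 and 39 reads in the 10 restricted libraries, against 0 to 41 in the control libraries. The 39 were in Restricted 2 and the 41 in Control 1. In 8 of 10 restricted libraries it had at most 3 reads, against 1 of 10 control libraries. By label, the 10 libraries marked Yes held 147 reads of Elovl2 and the 10 marked No held 23. Restricted 2 also had the highest germ cell sum of all 20 libraries (94.7 CPM) and Control 1 the highest sum of 8 epididymal epithelium genes (321 CPM); the part of either tissue in these reads was not tested.

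Elovl3, the elongase known from brown fat, had 28 reads in Restricted 1, 9 in Restricted 10, 6 in Restricted 5 and 4 in Restricted 8, and 0 to 3 in the other 6 restricted libraries. The control libraries held 0 to 4 reads, except for 13 in Control 2. The order of these 4 restricted libraries was the same as for Elovl6. In CPM, Restricted 1 had 1.58 and the next library, Restricted 10, had 0.404. Elovl4 had 13 reads in Restricted 1 and 1 to 5 in the other 9 restricted libraries, against 0 to 6 in control libraries. Without a filter on low counts, edgeR called none of the 3 by diet (adjusted p = 0.632 for Elovl2, 0.114 for Elovl3 and 0.370 for Elovl4). By label, Elovl2 was called in that fit, with a log2 fold change, Yes over No, of 2.61 ± 0.689 (SE, adjusted p = 0.0268), and Elovl3 and Elovl4 were not (adjusted p = 0.174 and 0.455).

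**Figure D4:**
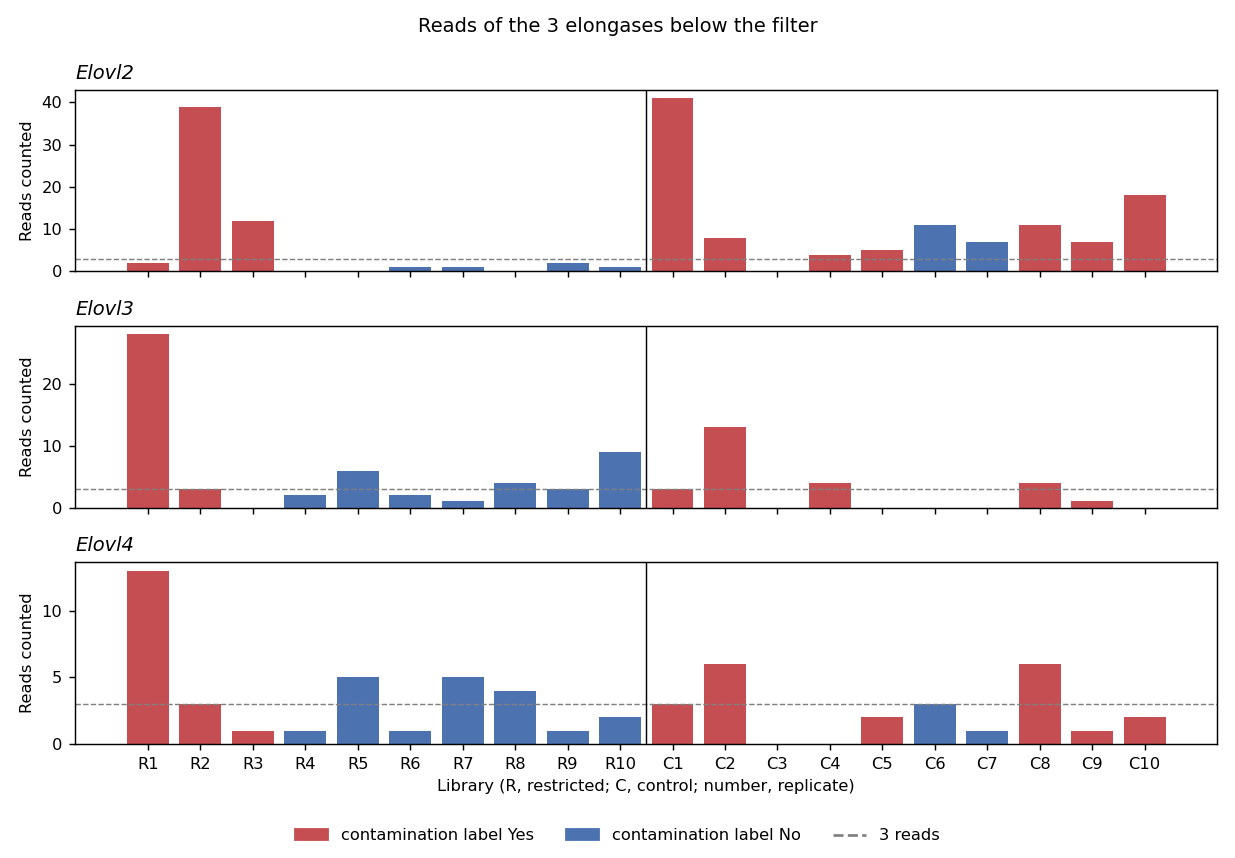
Reads counted for Elovl2, Elovl3 and Elovl4 in each library, restricted (R) left and control (C) right, coloured by contamination label, with a dashed line at 3 reads. Elovl2 peaks in R2 (39) and C1 (41), and both Elovl3 (28) and Elovl4 (13) peak in R1.

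Thermogenic adipocyte genes, a list of 6, had their highest sums in the 3 restricted libraries with the most Elovl6 and Elovl3 of that diet. Their sum was 72.3 CPM in Restricted 1, 77.5 in Restricted 10 and 54.4 in Restricted 5, and 26.9 to 38.5 CPM in the other 7 restricted libraries, against 22.1 to 31.3 CPM in control libraries. Control 2, with more Elovl3 (0.539 CPM) than Restricted 10 (0.404 CPM), had a sum of 23.0 CPM. Of the 4 tested, 2 were called higher on restriction, Cidea and Cox8b, where 6.31% of all tested genes were. Cox7a1 (log2 fold change 0.35, adjusted p = 0.340) and Ppargc1a (-0.04, adjusted p = 0.901) were not called. Ppargc1a was at 7.44 CPM in Restricted 1, against a control mean of 9.95 CPM. The untested Dio2 averaged 0.426 CPM in restricted and 0.541 CPM in control libraries, so the list did not move as a whole. Ucp1, which defines brown fat cells, averaged 0.0170 CPM in restricted and 0.0381 CPM in control libraries. The part of such cells in the elongase values was not tested.

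Elovl5 and Elovl6 varied together between restricted libraries. Over the 10 restricted libraries, Pearson's r of log2 CPM was 0.895 (permutation p = 0.00095, adjusted p = 0.0114 over 12 relations) and Spearman's rho 0.915 (permutation p = 0.00058, adjusted p = 0.00696). Without Restricted 1 and Restricted 5, the libraries farthest from the Elovl5 median, r was 0.854 (n = 8). Over the 10 control libraries r was 0.619 (permutation p = 0.0511, adjusted p = 0.123) and rho 0.721 (permutation p = 0.0237, adjusted p = 0.0947), and r was 0.611 without the 2 farthest. The difference between the diets was not tested. Elovl1 and Elovl6 had an r of 0.717 on restriction (permutation p = 0.0182, adjusted p = 0.0725) with a rho of 0.503 (permutation p = 0.142, adjusted p = 0.341), and r was 0.361 without Restricted 1 and Restricted 4, so that relation rested on those libraries. None of the other relations between the 4 tested members passed the adjusted threshold in either diet. All values of a library share its depth, scaling and tissue makeup.

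**Figure D5:**
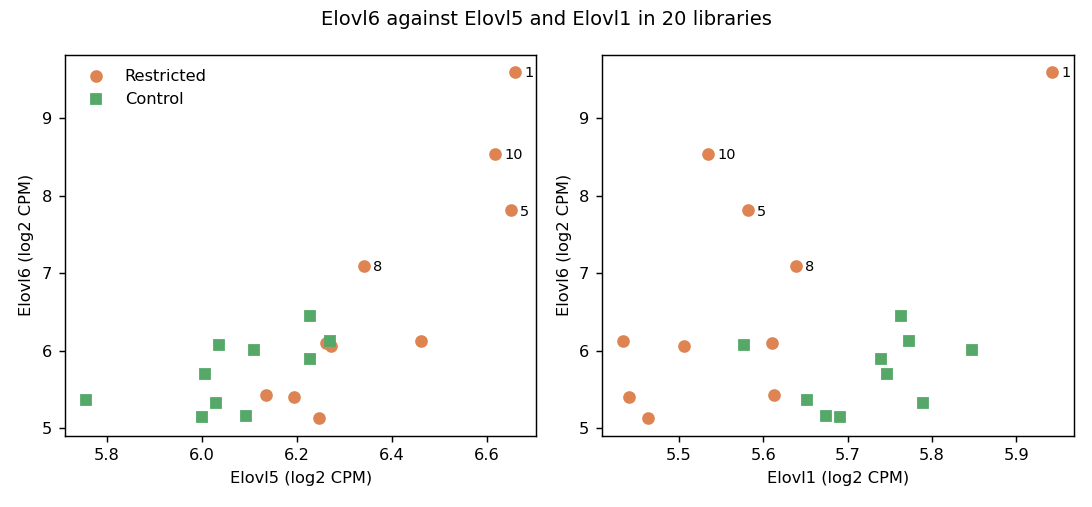
Elovl6 against Elovl5 (left) and Elovl1 (right), in log2 CPM, in 10 restricted (circles) and 10 control libraries (squares); digits mark Restricted 1, 5, 8 and 10. Elovl6 rises with Elovl5 among restricted libraries (r = 0.895), while Restricted 1 stands alone at the top of the Elovl1 axis.

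For each tested member, the 3 genes most alike in rank over the 20 libraries (Spearman's rho) were taken from 14294 genes with a mean of at least 1 CPM. They are the extremes of a search, so no p is given. For Elovl6 these were Gbe1, the glycogen branching enzyme (rho 0.926), Pdha1, a subunit of pyruvate dehydrogenase (0.923), and Acaca, the acetyl-CoA carboxylase that makes malonyl-CoA (0.914). Over the 10 restricted libraries alone, Acaca put the libraries in exactly the order of Elovl6 (rho 1). Acaca itself averaged 1078 ± 718 CPM in restricted and 706 ± 158 CPM in control libraries (SD, n = 10 each; adjusted p = 0.0933). For Elovl5 they were Sccpdh (0.944), Gtf2h5, a subunit of the repair and transcription factor TFIIH (0.938), and Pdk1, a kinase that restrains pyruvate dehydrogenase (0.937). For Elovl1 they were Mmp19, a matrix metalloprotease (0.886, and 0.903 over the restricted and 0.297 over the control libraries alone), the splicing regulator Ptbp1 (0.835) and Arhgap1 (0.832). For Elovl7 they were Fndc7 (0.947), 2410004P03Rik (0.937) and Ttll3, which adds glycine to tubulin (0.923), each of which was also called higher in libraries marked Yes.

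Of 7 listed enzymes that finish the elongation cycle, 6 were tested, and 2 were called higher and 1 lower. Over all tested genes 6.31% were called higher and 7.29% lower. The median log2 fold change of the 6 was 0.15, against 0.01 over all tested genes. Tecr, the enoyl reductase, averaged 260 ± 105 CPM in restricted and 180 ± 18.6 CPM in control libraries (log2 fold change 0.58, adjusted p = 0.0306). Hacd1, a dehydratase known from muscle, averaged 10.7 ± 1.4 CPM in restricted and 8.46 ± 0.862 CPM in control libraries (0.32, adjusted p = 0.0201), and the dehydratase Hacd4 had a log2 fold change of -0.40, with an adjusted p of 0.0349. Without Restricted 1 or without Control 3 only Hacd1 of the 6 was called, without Restricted 2 only Tecr and without Control 7 only Hacd4. None was called in libraries marked No alone or with RNA integrity as a term, and the count moved by over 1.5 times in 7 of 16 other settings.

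Among desaturases, which put double bonds into the chains that elongases make or take, 2 of 4 Fads genes were called, 1 in each direction. Over all tested genes 13.6% were called, 6.31% higher and 7.29% lower. Fads3 averaged 867 ± 73.1 CPM in restricted and 635 ± 111 CPM in control libraries (log2 fold change 0.45, adjusted p = 0.00358), and Fads6 4.06 ± 0.644 CPM in restricted and 9.0 ± 2.31 CPM in control libraries (-1.10, adjusted p = 8.8e-05). Fads1 and Fads2, the desaturases that work in turn with Elovl5 and Elovl2 on polyunsaturated chains, had log2 fold changes of -0.18 (adjusted p = 0.159) and 0.18 (adjusted p = 0.460). The substrates of stearoyl-CoA desaturases include the product of Elovl6. Of these 4 desaturases only Scd1 was called (0.82, adjusted p = 0.000989), at a median of 0.65 for the 4. Reads that these similar genes share may have been split among them. Scd1 averaged 62724 ± 17706 CPM in restricted and 34890 ± 3288 CPM in control libraries (SD, n = 10 each). Without Restricted 1, the calls of Fads3, Fads6 and Scd1 remained, whereas Scd1 was not called in the 14 libraries without muscle RNA. Fads3 was not called in libraries marked No alone or with RNA integrity as a term, and none of the 3 was called in libraries marked Yes alone. Fads2 was called higher in libraries marked Yes (log2 fold change 1.01, adjusted p = 4.8e-05), as Elovl7 was.

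Of the genes upstream of the elongases, none of 6 in de novo synthesis was called, at a median log2 fold change of 0.69; the smallest adjusted p was that of Acaca, and without Restricted 2 or without Restricted 3 both Acaca and Me1, the malic enzyme, were called. Fasn, the fatty acid synthase that makes palmitate, averaged 11428 ± 9527 CPM in restricted and 8098 ± 1553 CPM in control libraries, with 34020 CPM in Restricted 1. Of 11 lipogenic regulators 2 were called higher, Insig1 (0.95, adjusted p = 0.0179) and Insig2 (0.29, adjusted p = 0.00323), at a median of 0.14. Together these are 2 of 17 genes, where 13.6% of all tested genes were called. Insig1 and Insig2 hold back the processing of SREBP factors. Srebf1, the gene of SREBP-1, had an adjusted p of 0.491 at a log2 fold change of 0.14, and Mlxipl, that of ChREBP, one of 0.335 at 0.11. Without Restricted 1, Insig1 was not called, Insig2 was, and Rxra was called lower. Of 12 genes that activate, import or oxidise very long chains, 1 was called higher, where 6.31% of all tested genes were. It was the acyl-CoA synthetase Acsl3 (0.46, adjusted p = 0.0150), at a median of 0.20 for the 12. Without single libraries 1 to 3 of the 12 were called. None of the 4 tested ceramide synthases, which take up very long chain acyl-CoAs, was called, at a median of -0.03; Cers6 had the smallest adjusted p (-0.28, adjusted p = 0.0527) and was called without Restricted 5 or without Restricted 8.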

How the data were processed

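The authors deposited 1 table of raw counts (whole numbers, 1 value per gene and library, 20 libraries) with gene model lengths. Per the submitters' processing notes, bcl2fastq 4.0.3, STAR and Salmon were used with the build GRCm38. How reads were assigned to genes, and whether by strand, is not given in the sources used here, so reads of opposite-strand neighbours cannot be told apart: Gm35986, which overlaps the start of Elovl6, held 39 reads in all libraries against 54205 for Elovl6. The extraction text names QUAD where the tissue label says eWAT.

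Symbols were matched by gene identifier for 55141 of 55401 genes. The test was that of edgeR 4.0.16 under R 4.3.3 (TMM factors, filterByExpr by diet with a minimum count of 10, quasi-likelihood, contamination label and diet as terms, two-sided, Benjamini-Hochberg at 0.05 over 15986 genes). CPM are counts scaled by the tested genes' total times the TMM factor, and log2 CPM has a prior count of 2. An SE is the log2 fold change over the square root of F. Relations between members used 100000 permutations. Figures and permutations used Python 3.11.15, numpy 2.4.6 and scipy 1.17.1.

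Alternatives were DESeq2 1.42.0, limma-voom with quality weights (limma 3.58.1), other factors and filters, other terms, subsets of libraries, a block by replicate number and omission of each library singly. At the totals given, counting error is small for Elovl1, Elovl5 and Elovl6 and large for members with few reads. Of the steps, only the edgeR test by diet was tried on simulated counts, in which each gene had the same spread in both diets. The tests by label and of diet by label, the relations between members and the motif search were not tried in that way. The members, lists, tests and alternatives were chosen with earlier results of these data known. Named are the 7 elongases, of each pathway list the members called or else the one with the smallest p, and the 3 genes most alike. Fads1, Fads2, Fasn, Me1, Srebf1, Mlxipl, Rxra and the marker genes Sycp3, Cidea, Cox8b, Cox7a1, Ppargc1a and Dio2 were named after their values were seen. No 2 libraries of a diet agreed within sampling noise (the lowest chi-square was 9.4 for each degree of freedom).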

Additional observations from a re-analysis of the deposited data

Results flagged for a closer look

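In 7 of the 14 sets of 10 libraries (7 elongases in 2 diets), the highest library stood apart from the rest by more than Dixon's 95% limit for 10 values. Chance flags about 1 in 20 sets of normally distributed values, a rate not checked for these CPM, some of which rest on few reads. On log2 CPM, a scale added after the data were seen, 2 of the 7 gaps stayed over the limit, as a share of the range, those of Elovl1 (0.598) and Elovl4 (0.485) in Restricted 1, and that of Elovl6 in Restricted 1 was 0.236. Restricted 1 was that library for 4 members: Elovl6 (773 CPM, next 372), Elovl1 (61.4, next 49.7), Elovl3 (1.58, next 0.404) and Elovl4 (0.733, next 0.22). Restricted 2 was it for Elovl2 (1.84 CPM, next 0.638). In the control diet, Control 1 stood apart for Elovl2 (1.93 CPM, next 0.734) and Control 2 for Elovl3 (0.539 CPM, next 0.172). The values of Elovl2, Elovl3 and Elovl4 rest on 4 to 41 reads in these and the next libraries. Elovl5 and Elovl7 had no such library in either diet.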

How the results depend on the processing

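The count of genes called by diet was 2173 and moved to 239 using Yes libraries only, 400 using No libraries only, 1247 with the germ cell index in place of the label, 927 in the 14 libraries without muscle RNA, 392 with RNA integrity as a term in 17 libraries and 1445 in the same 17 without it. Of the 4 tested elongases 2 were called, against 0 in each label alone and with the germ cell index, and 1 without muscle RNA (Elovl1) and with RNA integrity (Elovl6). The replicate numbers did not pair the libraries (correlation of deviations -0.639 to 0.581, over 0.1 in 4 of 10 pairs; 4 of 20 libraries closest to their own number), and with the replicate block 1388 genes and 1 elongase, Elovl5, were called. Leaving out 1 library gave 1506 to 2274 genes and 2 elongases by diet, 709 to 944 genes and 1 elongase by label, and 0 to 1 genes (1 without Control 3) and 0 elongases for diet by label, where edgeR called 0 of 15986 (871 at an unadjusted p under 0.05). Without a filter, 2 elongases were called by label (Elovl2 and Elovl7), among 1257 of 35680 genes.

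Limma-voom was run only with quality weights, which give each library its own weight. The log2 fold change of Elovl6 by diet was 0.64 in that limma-voom fit (adjusted p = 0.305), 0.77 with the replicate block (adjusted p = 0.302) and 1.32 with the germ cell index (adjusted p = 0.173). Elovl1 was called in the limma-voom fit (-0.18, adjusted p = 0.0238). Elovl7 by diet reversed to -0.36 without the label and -0.26 with the germ cell index. By label, reversed values, none of them called, were -0.071 for Elovl5 without the diet, -0.021 (Elovl1) and -0.69 (Elovl6) without muscle RNA, -0.26 (Elovl6) and -5.1e-05 (Elovl1) without Restricted 1 (up to 1.12 and 0.11 without other single libraries), and -0.026 (Elovl6) in limma-voom. The cause of these changes was not tested. Elovl7 by label was called under each of the 12 other settings and without each library, at 1.97 to 2.32.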
